A study of Mus musculus with 8 samples.

Results

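Stratified epidermis is built and renewed under a small set of transcription factors, and the chromatin at the genes of 10 of them is described here: Trp63, Klf4, Klf5, Grhl1, Grhl2, Grhl3, Ovol1, Tfap2a, Tfap2c and Cebpa. The genes were chosen by name for their known roles in this lineage, with earlier results of these data known. They are 10 of the 26180 genes with a curated RefSeq transcript in the mouse genome (GRCm38.p6, the assembly behind mm10). For each, peaks of 4 lists were collected at the promoter, in the gene body and within 50 kb of the gene. The promoter was taken as 1 kb upstream to 100 bp downstream of a transcription start site (TSS), and a peak counted there when it overlapped that window.

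The tissue was the whole epidermis of newborn wild-type mice (P0.5, postnatal day 0.5), which had been lifted off the back skin with dispase and trypsinized to single cells. The series holds 8 libraries of 6 antibodies, and peak lists of 4 antibodies with 1 library each are used here: MOF by ChIPseq, and Rfx2, H3K4me3 and H3K27Ac by Cut&Run, where a nuclease tethered to the antibody cuts out the bound DNA in permeable cells. H4K16Ac, H3K4me1 and the other libraries of H3K4me3 and H3K27Ac were not analysed here. With 1 list per antibody and no control list used here, nothing below has a replicate spread or a test, and counts over the 10 genes are set beside the same counts over all genes where these were made. Total epidermis mixes basal, suprabasal, hair follicle and minor cell types, so that a peak cannot be assigned to one of them.

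MOF (KAT8) is the acetyltransferase that places most acetylation on lysine 16 of histone H4. Rfx2 is a transcription factor that binds the X-box, a motif found in promoters of many ciliary genes. Active or poised promoters carry H3K4me3, and H3K27Ac is found at active promoters and at enhancers. Of the 10 factors, p63 (Trp63) sets up and maintains the stratified program, the AP-2 proteins (Tfap2a, Tfap2c) act with it in surface ectoderm and activate keratin genes, Klf5 is linked to basal growth, and Klf4, the Grainyhead-like proteins (Grhl1, Grhl2, Grhl3), Ovol1 and C/EBPα (Cebpa) act in cell junctions, cell cycle exit, differentiation and barrier formation.

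The lists held 17546 MOF peaks, 337 Rfx2 peaks, 27039 H3K4me3 peaks and 30736 H3K27Ac peaks. Peak height is the fold enrichment over the caller's local background for Rfx2 and both histone marks, and a score of unstated scale for MOF. Heights were therefore compared only within a list. A low fold enrichment is a low ratio to the local background, and the read level itself was not available. The labelled tissue was checked by markers: H3K4me3 lay at the promoter of 7 of 10 keratinocyte genes, 3 of 7 fibroblast genes, 2 of 5 melanocyte genes, 1 of 4 endothelial genes, 1 of 3 neuronal genes, and 0 of 4 immune and 0 of 3 muscle genes. The keratinocyte genes without a peak were Krt1, Krt10 and Itga6, the first pair being the keratins of the suprabasal layers. The fibroblast genes with H3K4me3 were Col1a2, Pdgfra and Dcn, and their part in the peaks of the 10 factors was not tested.

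To ask whether these regulators lay among the genes with MOF or Rfx2 at their promoters, the 4 lists were first read at the 10 promoters. H3K4me3 was present at 10 of 10 genes, against 54.0% of all genes, and H3K27Ac at 8 of 10, against 44.1% of all genes and 79.8% of the 14132 genes with H3K4me3. MOF was present at 2 of 10, the promoters of Grhl2 and Cebpa, against 23.7% of all genes and 42.0% of genes with H3K4me3. Rfx2 was present at 0 of 10, against 1.21% and 2.24%. The MOF count was thus near the share over all genes and below that of genes with H3K4me3, and no Rfx2 peak is the usual state of a gene in so short a list. Both counts of present marks depended on the peaks taken. With the peak centre required in the window, H3K4me3 was at 5 genes (25.5% of all genes) and MOF at Cebpa alone (14.7%). With the stronger 50% of peaks, ranked by −log10 q-value for H3K4me3 and by score for MOF, H3K4me3 was at 5 genes (45.3%), near the share over all genes, and MOF again at Cebpa alone (14.6%).

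**Figure D1:**
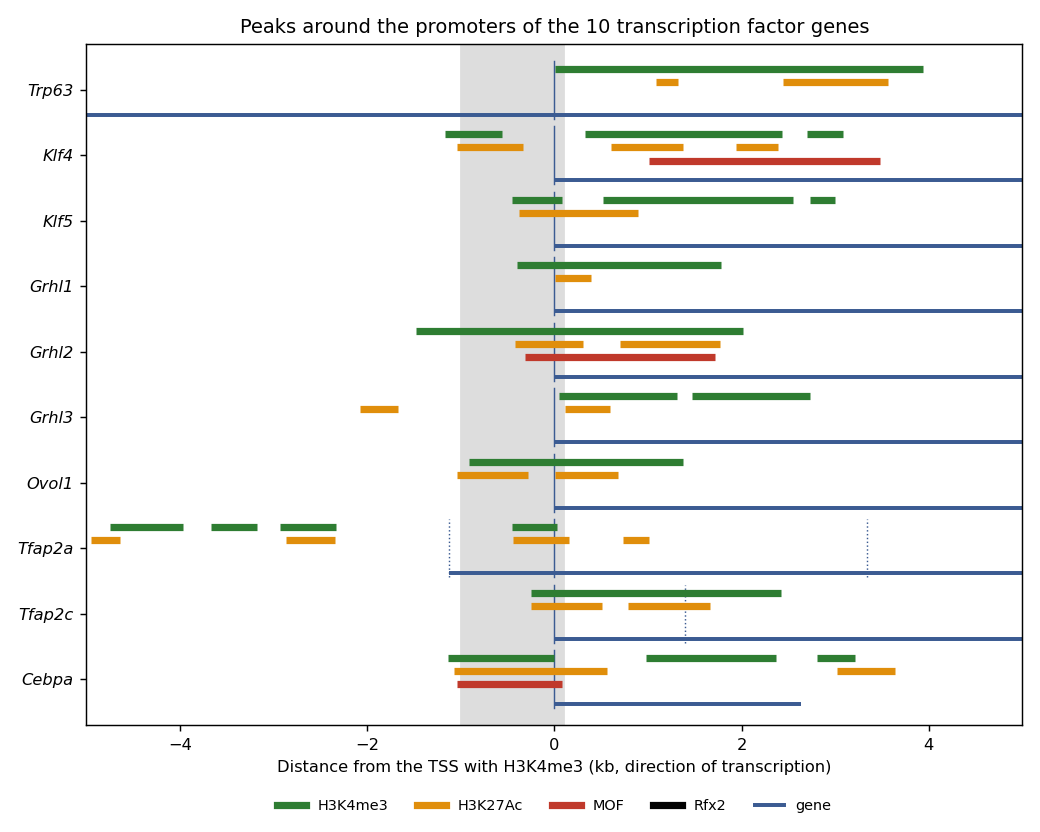
Peaks of the 4 lists within 5 kb of the marked TSS of each gene, with distance in kb in the direction of transcription. Thick lines are peaks (green H3K4me3, orange H3K27Ac, red MOF, black Rfx2), the thin blue line is the gene, dotted verticals are its other curated TSSs and the grey band is the promoter window. H3K4me3 enters the band in all 10 rows, MOF only in the rows of Grhl2 and Cebpa, and no Rfx2 peak lies in view.

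Several of the genes have more than 1 curated TSS, and the marks were not at all of them. Of 15 curated TSSs of the 10 genes, 11 had H3K4me3, 9 had H3K27Ac, 2 had MOF and 0 had Rfx2, against 53.2%, 43.3%, 22.8% and 1.21% of all 31645 curated TSSs. The TSSs without H3K4me3 were the upstream one of Trp63, the downstream one of Grhl1, and the outermost and innermost of the 3 TSSs of Tfap2a.

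Trp63 carried the widest H3K4me3 peak of the 10 genes, over its internal promoter. The gene runs from 25683765 to 25892088 on the plus strand of chromosome 16, a length of 208324 bp. Its upstream TSS, at 25683765, starts the long TAp63 transcripts and had no peak of any list at its promoter while the nearest H3K27Ac and H3K4me3 peaks were 41268 bp and 58978 bp away. The internal TSS, at 25801916, starts the ΔNp63 transcripts, the main form of basal keratinocytes. There an H3K4me3 peak of 3941 bp began 2 bp after the TSS and ended 3942 bp after it, at a fold enrichment of 3.29.

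Among genes with H3K4me3 that peak stood at the 99.97th percentile of width and at the 2.08th percentile of fold enrichment. The H3K27Ac peaks nearest to the internal TSS lay downstream, under the same H3K4me3 peak: one from 1087 bp to 1323 bp with a fold enrichment of 2.27, and one from 2444 bp to 3564 bp with 3.60. No H3K27Ac peak reached the promoter window of either TSS. H3K27Ac was most abundant inside this gene, with 16 peaks in the gene body and 2 in the flanks, the 99.67th percentile among genes with H3K4me3. Their fold enrichment ran from 2.27 to 6.59, and the highest lay about 9 kb upstream of the internal TSS, at chr16:25792503-25793044, in an intron.

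MOF had no peak at either Trp63 promoter and formed 4 intronic peaks far into the gene. The first, chr16:25842958-25844801, was 1844 bp wide with a score of 955, began 41042 bp after the TSS and overlapped both histone marks. The second, 1654 bp wide with a score of 781, overlapped H3K27Ac alone. The last pair, of 596 bp (score 382) and 1225 bp (score 567), overlapped neither mark. Scored against all MOF peaks, the 4 stood at percentiles 86.09, 74.62, 13.07 and 43.55, so that the pair with a histone mark was the higher.

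Klf4 and Klf5 are zinc finger factors whose H3K4me3 was broken into several peaks around the TSS. At Klf4 (minus strand of chromosome 4, TSS at 55532475) the peak in the promoter window ran from 1166 bp to 560 bp upstream, was 607 bp wide and had a fold enrichment of 2.97. A second peak of 2105 bp, with 3.34, began 323 bp downstream and another of 379 bp, with 2.65, followed it. H3K27Ac likewise lay on either side of the TSS, from 1039 bp to 336 bp upstream with a fold enrichment of 2.98, and in the gene from 604 bp downstream with 3.48. The TSS itself was in neither mark's peaks.

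The reference sequence around that TSS, from 250 bases before it to the 50 bases that it starts, is printed to show what lay in the gap, with each CpG in capitals. It held 40 CpG dinucleotides in 300 bases, a GC content of 74.3% and a ratio of observed to expected CpG of 0.974, the 90.18th percentile of 23303 RefSeq promoters. No peak of the 4 lists overlapped these bases.
Klf4 promoter, minus strand, chr4:55532426-55532725: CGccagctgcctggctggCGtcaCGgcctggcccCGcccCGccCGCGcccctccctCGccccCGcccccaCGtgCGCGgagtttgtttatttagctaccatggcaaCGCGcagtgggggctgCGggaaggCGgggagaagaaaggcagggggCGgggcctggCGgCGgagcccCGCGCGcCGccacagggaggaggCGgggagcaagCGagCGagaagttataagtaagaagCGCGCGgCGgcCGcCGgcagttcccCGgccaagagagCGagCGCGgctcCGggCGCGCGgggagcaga

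MOF covered the body of Klf4 but not its promoter. The peak, chr4:55528999-55531462, ran from 1013 bp to 3476 bp after the TSS, with a width of 2464 bp, the 98.81st percentile of MOF widths, and a score of 703. It overlapped 2 H3K4me3 and 2 H3K27Ac peaks. A second MOF peak of 1602 bp, with a score of 683, lay 35 kb downstream at chr4:55495804-55497405, between genes, again with both marks.

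The highest peaks of both marks around Klf4 were outside the gene, 17 kb downstream, at a place with no curated TSS. The H3K4me3 peak chr4:55514683-55515334 had a fold enrichment of 17.5, the 99.6th percentile of its list, and the H3K27Ac peak chr4:55514608-55515229 had 9.86, the 96.3rd percentile. Neither overlapped MOF. The 300 reference bases at the H3K27Ac summit are shown because they are rich in CpG for such a place: 28 CpG dinucleotides, the 98.0th percentile of 19926 H3K27Ac summit windows at no promoter, whose median was 4. CpG is in capitals and the plus strand is given.
Klf4 downstream region, plus strand, chr4:55514777-55515076: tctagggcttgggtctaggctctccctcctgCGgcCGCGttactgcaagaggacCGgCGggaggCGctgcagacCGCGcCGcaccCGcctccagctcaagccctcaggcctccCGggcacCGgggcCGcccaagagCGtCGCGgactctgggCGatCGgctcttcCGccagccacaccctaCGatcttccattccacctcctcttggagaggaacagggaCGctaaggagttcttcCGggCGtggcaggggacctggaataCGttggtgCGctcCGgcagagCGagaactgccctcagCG

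Klf5 had the fewest peaks around it. At its TSS (99298691, plus strand of chromosome 14) an H3K4me3 peak of 539 bp, with a fold enrichment of 3.26, ran from 457 bp upstream to 81 bp downstream. A wider one of 2028 bp, with 4.03, began 520 bp into the gene. A single H3K27Ac peak of 1274 bp, with 3.82, joined the 2 across the gap, from 376 bp upstream to 897 bp downstream. Klf5 was the only one of the 10 genes with no MOF peak within 50 kb, the nearest being 93036 bp from the TSS, and it had 1 H3K27Ac peak outside the promoter, 49392 bp downstream of the TSS.

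Among the Grainyhead-like genes, whose products bind genes of desmosomes, tight junctions and the cornified envelope, MOF lay at the promoter of Grhl2 alone. The Grhl2 peak, chr15:37232720-37234756 on the plus-strand gene, ran from 316 bp upstream to 1720 bp downstream of the TSS at 37233036. It was 2037 bp wide, the 96.83rd percentile of MOF widths, but its score of 423 was at the 19.69th percentile. It lay within an H3K4me3 peak of 3495 bp, with a fold enrichment of 3.81, and overlapped 2 H3K27Ac peaks, of 722 bp with 4.27 and of 1067 bp with 4.92. The same MOF peak also overlapped the promoter of the noncoding gene Gm16136, so that it cannot be assigned to one of the 2 genes.

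Grhl2 held 9 H3K27Ac peaks in its body and 3 in its flanks. Of the 8 body peaks away from the promoter MOF peak, 1 overlapped MOF, at chr15:37288224-37289175, a peak of 952 bp with a score of 381 deep in an intron. H3K4me3 outside the promoter was limited to 2 peaks about 35 kb and 40 kb upstream, between genes, with fold enrichments of 4.62 and 5.34, and both overlapped H3K27Ac.

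Grhl1 has 2 curated TSSs 8 kb apart on the plus strand of chromosome 12, and the marks lay at the upstream one. At 24572287 an H3K4me3 peak ran from 395 bp upstream to 1779 bp downstream (2175 bp, fold enrichment 5.72, the highest of the 10 genes) and H3K27Ac from 6 bp to 391 bp downstream with a fold enrichment of 6.64. At 24580719 no peak of the 4 lists was in the promoter window, and the nearest H3K4me3 ended 6653 bp upstream. The 2 sequences are printed to compare their CpG, in capitals: 35 in the marked promoter and 0 in the unmarked one, with GC contents of 75.3% and 51.3%.
Grhl1 upstream promoter, plus strand, chr12:24572037-24572336: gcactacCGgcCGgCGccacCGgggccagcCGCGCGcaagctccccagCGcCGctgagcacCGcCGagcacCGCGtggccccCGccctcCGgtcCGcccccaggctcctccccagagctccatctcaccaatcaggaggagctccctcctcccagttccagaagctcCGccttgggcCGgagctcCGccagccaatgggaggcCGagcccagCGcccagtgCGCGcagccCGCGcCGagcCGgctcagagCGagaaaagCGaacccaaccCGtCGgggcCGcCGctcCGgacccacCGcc
Grhl1 downstream promoter, plus strand, chr12:24580469-24580768: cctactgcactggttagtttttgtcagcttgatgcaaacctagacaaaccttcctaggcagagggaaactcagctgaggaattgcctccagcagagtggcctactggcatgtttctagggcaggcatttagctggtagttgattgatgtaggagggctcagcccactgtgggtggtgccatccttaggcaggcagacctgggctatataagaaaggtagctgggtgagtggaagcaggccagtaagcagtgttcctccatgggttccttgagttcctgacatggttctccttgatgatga

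In the body of Grhl1, MOF formed 1 peak of 1311 bp, score 462, at chr12:24593188-24594498, in an intron, over an H3K4me3 peak with a fold enrichment of 9.38 and an H3K27Ac peak with 5.41. The flanks held 2 more MOF peaks, 1 of them at the promoter of Klf11 beyond the 3' end, 1579 bp wide with a score of 455. Within that peak lay the only Rfx2 peak within 50 kb of any of the 10 genes, against 3.62% of all genes with Rfx2 in their flanks. It spanned 261 bp at chr12:24651814-24652074, with a fold enrichment of 10.2, the 82.0th percentile of the Rfx2 list. Klf11 is the gene with the nearest TSS, and the peak was in its intron, outside the promoter window.

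At Grhl3 (minus strand of chromosome 4, TSS at 135573632) both marks lay just inside the gene. H3K4me3 ran from 47 bp to 1310 bp downstream with a fold enrichment of 3.85, and a second peak of 1253 bp, with 2.88, followed. H3K27Ac ran from 117 bp to 599 bp downstream with 3.21, so that it began 17 bp outside the promoter window and Grhl3 was counted among the genes without H3K27Ac there. With 500 bp on either side of the TSS as the window it was counted, making 9 of 10.

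Grhl3 had 12 H3K27Ac peaks outside the promoter, 4 in the gene and 8 in the flanks, and 0 of them overlapped MOF (exact 95% interval 0% to 26.5%). The only MOF peak within 50 kb of the gene was intronic in its neighbour Stpg1, 64563 bp downstream of the Grhl3 TSS, 1211 bp wide with a score of 1320, the 94.17th percentile. The H3K27Ac peak 24 kb upstream of Grhl3, chr4:135597381-135598538, had a fold enrichment of 6.14 and was the only one at no promoter around the 10 genes whose summit window held an X-box, in capitals below, though no Rfx2 peak overlapped it. That is 1 of 78 such windows, against 0.507% over the genome.
Grhl3 upstream region, plus strand, chr4:135597562-135597861: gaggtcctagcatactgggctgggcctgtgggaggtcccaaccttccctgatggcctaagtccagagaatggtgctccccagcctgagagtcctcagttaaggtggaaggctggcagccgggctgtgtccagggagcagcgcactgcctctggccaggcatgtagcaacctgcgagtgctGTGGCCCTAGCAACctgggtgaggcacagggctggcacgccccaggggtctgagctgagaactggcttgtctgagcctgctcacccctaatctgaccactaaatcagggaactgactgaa

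Ovol1, a zinc finger repressor of proliferation genes in differentiating keratinocytes, lies among closely spaced genes on chromosome 19. Over its TSS (5560575, minus strand) an H3K4me3 peak of 2290 bp, with a fold enrichment of 4.90, ran from 916 bp upstream to 1373 bp downstream, and H3K27Ac formed peaks of 758 bp with 3.96 and of 675 bp with 4.18 on either side of the TSS. No MOF peak lay at the promoter or in the body. Of 4 MOF peaks in the flanks, 3 were at the promoters of Ap5b1, Rnaseh2c and Kat5, with scores of 423, 294 and 763. The fourth was 31 kb downstream between genes, 410 bp wide with a score of 840, over H3K4me3 with a fold enrichment of 13.2 and H3K27Ac with 6.24. All 4 carried both marks.

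Tfap2a and Tfap2c encode the AP-2 proteins of surface ectoderm and differed widely in H3K4me3. At Tfap2a (minus strand of chromosome 13) only the middle of 3 TSSs, at 40733795, had a mark: H3K4me3 from 453 bp upstream to 32 bp downstream, 486 bp wide with a fold enrichment of 1.63, and H3K27Ac from 447 bp upstream to 161 bp downstream with 2.53. That H3K4me3 fold enrichment stood at the 0.01st percentile of genes with H3K4me3, and the −log10 q-value of 6.03 at the 3.23rd. Of the 7 H3K4me3 peaks in the body and flanks of Tfap2a, 5 were also low, from 1.67 to 1.83, and the other 2 reached 6.41 and 6.68. A MOF peak of 445 bp, score 579, lay 6898 bp past the innermost TSS, in an intron, over both marks, and 1 of 407 bp, score 427, lay 20 kb upstream without either.

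Tfap2c (plus strand of chromosome 2) had a wide peak over both of its TSSs, 172549593 and 172550991. H3K4me3 spanned 2671 bp with a fold enrichment of 4.27, and H3K27Ac formed peaks of 762 bp with 4.43 and of 878 bp with 5.37. Outside the promoter it had 3 H3K27Ac peaks, all downstream, and 1 H3K4me3 peak. The only MOF peak was 254 bp wide, with a score of 318, the 4.81st percentile, and lay 20250 bp upstream without either mark.

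The nearest of the H3K27Ac peaks downstream of Tfap2c, chr2:172560049-172560470 with a fold enrichment of 5.14, was the only one at no promoter around the 10 genes with the paired cores of a p53-family site, CATG and a second CATG 6 bases on, in its summit window. Over the genome 1.51% of such windows held these letters, so that 1 of 78 is near that share. The match is in capitals below, and it is a description of letters, not a site.
Tfap2c downstream region, plus strand, chr2:172560154-172560453: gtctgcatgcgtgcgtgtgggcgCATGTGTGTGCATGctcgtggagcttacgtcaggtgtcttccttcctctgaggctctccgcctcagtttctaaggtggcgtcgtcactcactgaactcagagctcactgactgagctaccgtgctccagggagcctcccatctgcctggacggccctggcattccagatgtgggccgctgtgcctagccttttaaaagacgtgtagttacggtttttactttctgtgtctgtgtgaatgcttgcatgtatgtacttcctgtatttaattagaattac

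Cebpa, which encodes the C/EBPα of spinous cells, was the other gene with MOF at its promoter. The MOF peak, chr7:35118248-35119373 on the plus-strand gene, ran from 1045 bp upstream to 80 bp downstream of the TSS at 35119293, 1126 bp wide, with a score of 664 at the 62.0th percentile. H3K4me3 ran from 1137 bp upstream to 1 bp upstream, 1137 bp wide with a fold enrichment of 2.82, and a second peak of 1389 bp, with 3.01, lay 982 bp into the gene. H3K27Ac spanned the TSS from 1077 bp upstream to 558 bp downstream with 3.97. The promoter sequence is printed as the one of the 2 MOF promoters in the RefSeq table, with CpG in capitals: 29 dinucleotides, an observed to expected ratio of 0.853 and the 78.4th percentile.
Cebpa promoter, plus strand, chr7:35119043-35119342: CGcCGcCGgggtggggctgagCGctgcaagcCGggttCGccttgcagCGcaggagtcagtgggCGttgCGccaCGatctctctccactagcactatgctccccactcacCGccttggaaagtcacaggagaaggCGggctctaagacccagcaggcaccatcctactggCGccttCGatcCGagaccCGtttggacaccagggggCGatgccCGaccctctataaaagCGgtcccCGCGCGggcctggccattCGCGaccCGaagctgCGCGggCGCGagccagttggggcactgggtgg

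Around Cebpa, 10 H3K27Ac peaks and 8 H3K4me3 peaks lay outside the promoter, within a gene of 2636 bp and its flanks. Their fold enrichment ran from 3.47 to 6.69 for H3K27Ac and from 1.92 to 8.79 for H3K4me3. Both MOF peaks of the flanks, which began 48392 bp upstream and 52170 bp downstream of the TSS, lay between genes and nearer to other TSSs, those of Cebpg and Slc7a10.

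Set side by side, the H3K4me3 promoter peaks of the 10 genes had a wide range of width and fold enrichments under the median of genes with H3K4me3. The widest peak per gene measured 3941 bp at Trp63, 3495 bp at Grhl2, 2671 bp at Tfap2c, 2290 bp at Ovol1, 2175 bp at Grhl1, 1264 bp at Grhl3, 1137 bp at Cebpa, 607 bp at Klf4, 539 bp at Klf5 and 486 bp at Tfap2a. The median of 1719.5 bp compares with 1319 bp (quartiles 965 bp and 1699 bp) over genes with H3K4me3, and 5 of 10 genes were above that median. A peak of at least 2000 bp was present at 5 of 10 genes, against 12.8% of genes with H3K4me3.

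Fold enrichment was below the median of genes with H3K4me3 at 10 of 10 genes. It ran from 1.63 at Tfap2a to 5.72 at Grhl1 with a median of 3.55, against 7.98 (quartiles 6.12 and 9.96), and thus stayed under the lower quartile at every gene. The −log10 q-values were also below the median of those genes at 10 of 10, with a median of 22.7 against 47.3. Among peaks of 1000 bp or more, the wider ones had lower fold enrichment across the genome, with a median of 8.65 for widths of 1000 bp to 2000 bp, 5.76 for 2000 bp to 3000 bp and 3.88 above that, while peaks under 1000 bp had 7.23. Set against their own width class, Tfap2a, Klf4, Klf5, Grhl3 and Cebpa, all under 2000 bp, were below the 5th percentile (3.29 under 1000 bp, 5.02 from 1000 bp to 2000 bp). The 5 genes of 2000 bp or more were all above the 5th percentile of their class (3.92 from 2000 bp to 3000 bp, 2.89 above that), and Grhl1 (5.72) and Grhl2 (3.81) were almost at its median. The class depended on the window. When it reached 1 kb both upstream and downstream, the widest peak was 2105 bp with 3.34 at Klf4 and 2028 bp with 4.03 at Klf5, so that 7 genes were of 2000 bp or more, and 4 of 10 (Tfap2a, Klf4, Grhl3 and Cebpa) were below the 5th percentile of their class.

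**Figure D2:**
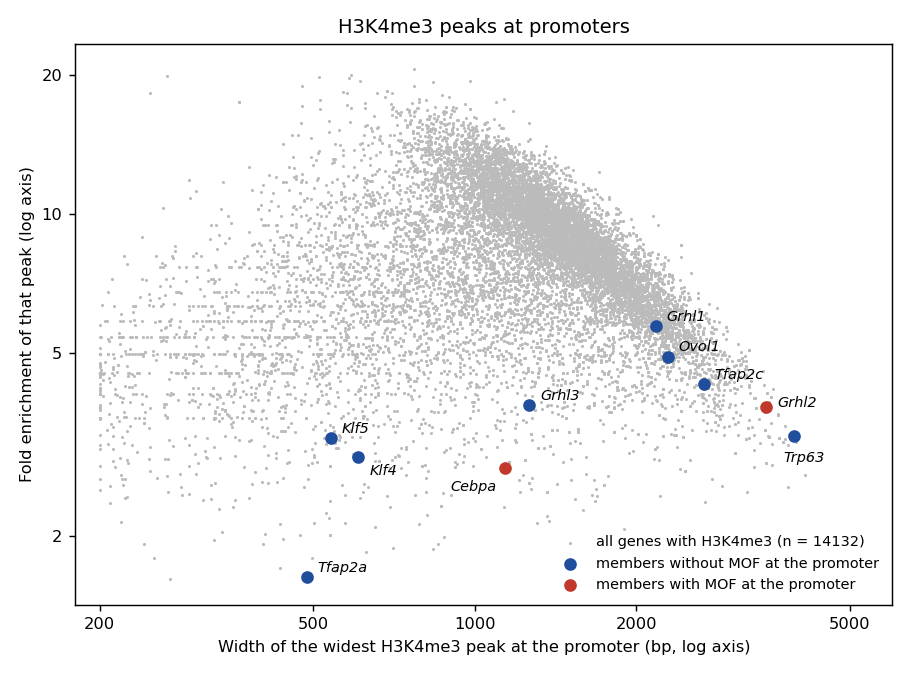
Width in bp (horizontal, log axis) and fold enrichment (vertical, log axis) of the widest H3K4me3 peak at the promoter, for 14132 genes (grey) and the 10 transcription factor genes (blue without MOF at the promoter, red with MOF). The 5 genes under 2000 bp lie along the lower edge of the cloud, as Tfap2a at 486 bp and 1.63, and the 5 wider ones lie within the cloud at their width, as Grhl1 at 2175 bp and 5.72.

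MOF at promoters varied with the same width classes over the genome, from 23.1% of genes with H3K4me3 below 1000 bp to 47.5% from 1000 bp to 2000 bp, 56.1% from 2000 bp to 3000 bp and 52.2% above. Of the 10 genes, those with MOF were 0 of 3, 1 of 2, 0 of 3 and 1 of 2 in these classes. The marked but MOF-free promoters with wide H3K4me3 were those of Grhl1, Ovol1, Tfap2c and Trp63.

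Because the H3K4me3 of some genes was split into neighbouring peaks, at or after the TSS, peak width also depended on how neighbouring peaks were treated. With H3K4me3 peaks less than 500 bp apart joined, Klf5 reached 3457 bp and Grhl3 2681 bp, and 7 of 10 genes were above the joined gene median of 1442.5 bp. With a gap of 1 kb, chosen after seeing the data, Klf4 reached 4246 bp and Cebpa 4348 bp, and 9 of 10 were above 1483 bp. Tfap2a remained at 486 bp under both.

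H3K27Ac outside the promoters was more frequent around most of the 10 genes than around the usual gene with H3K4me3. In all, 85 such peaks lay in the gene bodies and 50 kb flanks, at 10 of 10 genes, against 85.9% of genes with H3K4me3. Some of them lay close past the promoter window, so that the count is not of distant peaks alone. Such peaks began 117 bp after a TSS at Grhl3, 604 bp at Klf4, 704 bp at Grhl2, 737 bp at Tfap2a and 1087 bp at Trp63. The number was 18 at Trp63, 12 at Grhl2, 12 at Grhl3, 10 at Cebpa, 9 at Ovol1, 8 at Tfap2a, 6 at Klf4, 6 at Grhl1, 3 at Tfap2c and 1 at Klf5. The median of 8.5 compares with 3 (upper quartile 6) over genes with H3K4me3. It was 4.5 against 1 with flanks of 20 kb, 4.5 against 0 when only peaks whose nearest TSS is the gene's own were counted, and 3.5 against 2 with the stronger 50% of H3K27Ac peaks by q-value.

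A long gene offers more room, so the count was also taken per 100 kb of gene and flanks. It ran from 0.872 at Klf5 to 9.74 at Cebpa, with 5.84 at the long Trp63 gene, and 9 of 10 genes were above the median of 2.32 for genes with H3K4me3. By place, gene bodies held 38 H3K27Ac peaks at 7 of 10 genes, against 20.2% of all genes and 29.8% of genes with H3K4me3, of which 16 were in Trp63 and 9 in Grhl2, and flanks held 47 at 10 of 10, against 66.4%. Of the 85, 7 were at the promoter of another gene and 55 had the TSS of one of the 10 genes as their nearest.

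H3K4me3 outside promoters was less marked, with 46 peaks and a median of 5 per gene, against 3 (upper quartile 5). The median of the 10 genes became 3 with flanks of 20 kb, and 2.5 when only peaks whose nearest TSS is the gene's own were counted. It was 1.5 with the stronger 50% of peaks, and the matching gene medians were not made. Gene bodies held 15 at 7 of 10 genes, against 19.8% of all genes. Their median was 1.5 per gene, against 0 (upper quartile 1) over genes with H3K4me3. Flanks held 31 at 9 of 10, against 69.7%, with a median of 2.5 against 2 (upper quartile 5). The first body peaks of Klf4, Klf5 and Cebpa began 323 bp, 520 bp and 982 bp after the TSS, so that they lay near the promoter window. MOF outside promoters had the median of the usual gene, 2 per gene against 2 (upper quartile 3). The median of the 10 genes became 1, 0.5 and 0 under the settings given for H3K4me3, again without matching gene medians. MOF was found outside the promoter at 9 of 10 genes, against 79.7% of genes with H3K4me3. Its 8 body peaks were at 5 of 10 genes, against 17.1% of all genes and 22.8% of genes with H3K4me3, and its 12 flank peaks at 7 of 10, against 62.9%. Trp63 and Ovol1 had the most, 4 each. Rfx2 was in the body of 0 of 10 genes, against 0.183%, and outside the promoter at 1 of 10, against 4.97% of genes with H3K4me3.

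**Figure D3:**
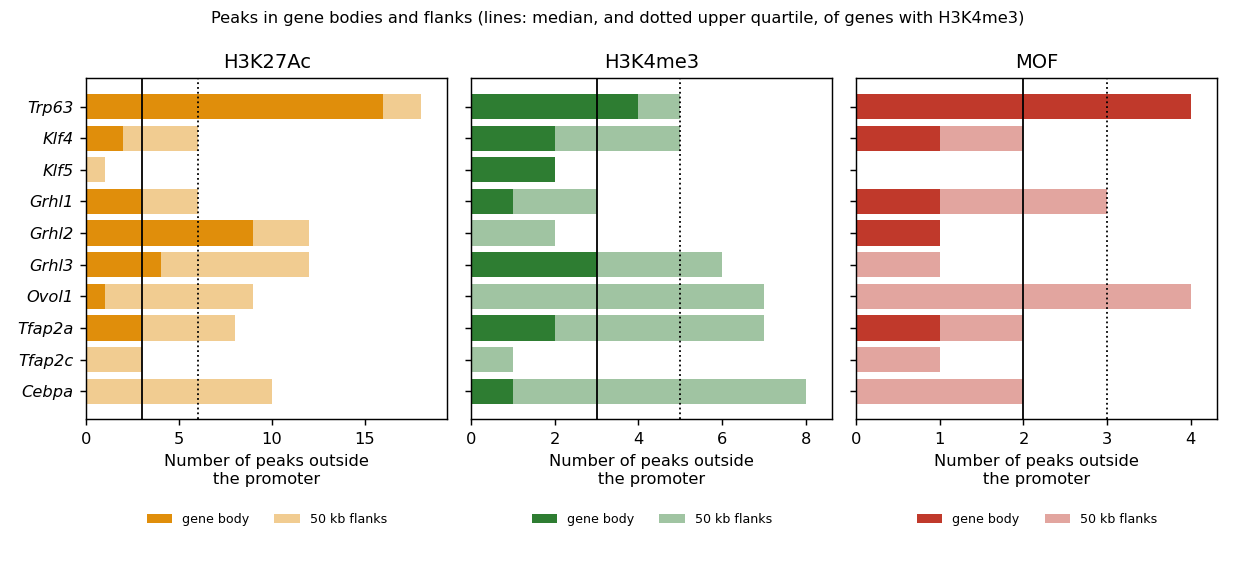
Number of H3K27Ac, H3K4me3 and MOF peaks outside the promoter of each gene, with gene body (dark) and 50 kb flanks (light) stacked. The solid and dotted lines are the median and upper quartile of genes with H3K4me3 (3 and 6 for H3K27Ac, 3 and 5 for H3K4me3, 2 and 3 for MOF), and 6 of the 10 genes exceed the dotted line for H3K27Ac.

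**Figure D4:**
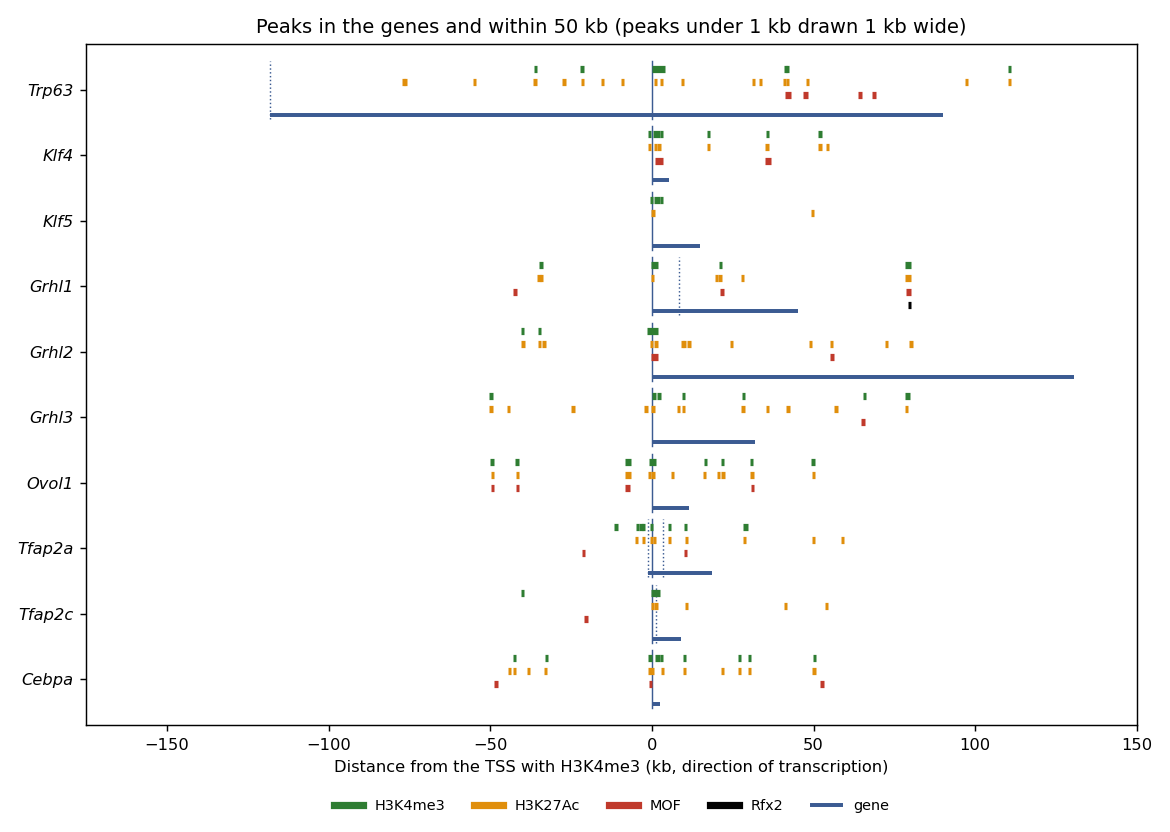
Peaks of the 4 lists in each gene and its 50 kb flanks, by distance in kb from the marked TSS in the direction of transcription. Colours are as in the promoter map, peaks under 1 kb are drawn 1 kb wide so that they can be seen, and dotted verticals are other curated TSSs. H3K27Ac is spread through the long Trp63 and Grhl2 genes, and 1 Rfx2 peak stands at the right end of the Grhl1 row.

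Of the 22 MOF peaks at, in or around the 10 genes, 12 overlapped both histone marks (54.5%), against 34.6% of all 17546 MOF peaks. H3K4me3 was overlapped by 14 (63.6%), against 41.5%, H3K27Ac also by 14, against 38.6%, and neither mark by 6 (27.3%), against 54.5%. The 22 peaks were taken around genes that all have H3K4me3, so that these shares are no result about MOF at the members. Their median width was 1039 bp, and 16 were wider than the median MOF peak of 562 bp. Their median score of 522 was under the list's median of 582, and 8 were above it. In 5 cases the peak was at the promoter of another gene.

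Seen from the H3K27Ac peaks, the share with MOF around the 10 genes had an interval that held the share elsewhere. Of 95 H3K27Ac peaks at, in or around them, 17 overlapped MOF, which is 17.9% (exact Clopper-Pearson 95% interval 10.8% to 27.1%), against 23.7% of all 30736. The share was 9.47% with the stronger 50% of MOF peaks, against 13.7% of all, and 32.6% with the stronger 50% of H3K27Ac peaks, against 36.6%. Away from promoters it was 10 of 78, or 12.8% (6.32% to 22.3%), against 12.0% of 19935, and at promoters 7 of 17, or 41.2% (18.4% to 67.1%), against 45.2%. Of those 17, the 10 at the members' own promoters held 2 with MOF, at Grhl2 and Cebpa, and the 7 at promoters of other genes alone held 5, at Klf11, Gm16136, Ap5b1, Rnaseh2c and Kat5. These intervals cover counting error over peaks of 1 library only. They also treat peaks near 1 gene as independent, although such peaks share their source and are not replicates. H3K4me3 overlapped 35 of the 78 peaks at no promoter, 44.9% (33.6% to 56.6%), against 37.7%. By gene the MOF overlap ran from 0 of 12 at Grhl3 to 3 of 7 at Klf4. The H3K27Ac peaks at no promoter had a median width of 448.5 bp and a median fold enrichment of 4.10, near the 415 bp and 4.45 of all such peaks. The 17 at a promoter had medians of 762 bp and 4.43, against 839 bp and a higher 6.44 over all H3K27Ac peaks at promoters.

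The sequences of the marked regions were then searched for the letters of sites bound by the AP-2, C/EBP, Grainyhead-like and p53 families, by AP-1 and by Rfx factors (the X-box), with none for the Klf and Ovol families, in 300 bases at the H3K27Ac summit, on both strands. Of the 78 windows at no promoter, GCCNNNGGC, the AP-2 palindrome, was in 15 (14.5% of 19929 windows over the genome), TGANTCA of AP-1 in 10 (16.9%), TTGCNNAA of C/EBP in 7 (11.9%), AACNNGTT, a loose Grainyhead-like form, in 1 (5.90%), AACCGGTT in 0 (0.231%), the paired p53-family cores in 1 (1.51%) and the X-box in 1 (0.507%). Letters of AACCGGTT also count as AACNNGTT.

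Sequences of 7 promoters of 5 of the genes (Klf4, Grhl1, Grhl3, Tfap2a and Cebpa) were in the RefSeq table. The marked promoters held 40 CpG dinucleotides at Klf4, 35 at Grhl1, 29 at Cebpa, 15 at Tfap2a and 12 at Grhl3, against a median of 21 at 14096 promoters of genes with H3K4me3 and 3 at 9207 promoters of genes without. Grhl3 and Tfap2a were below the former median. GCCNNNGGC was in 2 of the 7 promoters, those of Klf4 and Grhl1, against 19.6% of all promoters.

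Other transcription factors of keratinocytes were set beside the 10 genes, as a list of 25 written from general knowledge, with earlier results of these data known. H3K4me3 was at 23 of the 25 promoters, H3K27Ac at 20, MOF at 8 and Rfx2 at 0, against 54.0%, 44.1%, 23.7% and 1.21% of all genes. The 8 with MOF were among the 23 with H3K4me3, against 42.0% of genes with H3K4me3 and 2 of 10 members. Their median H3K4me3 width of 1858 bp, fold enrichment of 4.43 and number of H3K27Ac peaks outside the promoter of 7 stood beside 1719.5 bp, 3.55 and 8.5 in the 10 genes. Among those that differed from most of the list, Ovol2, Klf3, Prdm1 and Vdr had MOF, with scores of 505, 919, 651 and 447, and Cebpb and Ehf lacked H3K4me3.

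The paralogs of the 10 genes, 29 in number and 4 of them also in that list, gave a second frame. H3K4me3 was at 20, H3K27Ac at 18, MOF at 13 and Rfx2 at 0, against 54.0%, 44.1%, 23.7% and 1.21% of all genes. Of the 20 with H3K4me3, 12 had MOF, against 42.0% of genes with H3K4me3 and 2 of 10 members. The medians of H3K4me3 width, fold enrichment and H3K27Ac peaks outside the promoter were 1385.5 bp, 4.98 and 4. MOF was at Trp53, Klf3, Klf6 and Klf7, with scores of 463, 919, 433 and 973, whereas Trp73 and Klf1 had no H3K4me3. Within the p53 family MOF was at the promoter of Trp53 and not of Trp63 or Trp73, and among the Ovol genes it was at Ovol2 and not at Ovol1 or Ovol3. In the C/EBP family it was at Cebpa and Cebpd and not at Cebpb, Cebpe or Cebpg.

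Genes that these factors are known to act on, or that mark the epidermal program, were taken as 16 names, of which 15 were found. H3K4me3 was at 10 and H3K27Ac at 8 of their promoters, against 54.0% and 44.1% of all genes. MOF was at 1, against 23.7% of all genes and 42.0% of genes with H3K4me3. That promoter was of the basal keratin Krt14, where the peak was 431 bp wide with a score of 516. The suprabasal keratins Krt1 and Krt10 and the late genes Lor, Ivl and Tgm3 had no H3K4me3 peak. Rfx2 was at 0 of the 15, against 1.21% of all genes. The median H3K4me3 width was 2348.5 bp and the median fold enrichment 4.63. Over the genome, peaks of 2000 bp to 3000 bp had a median fold enrichment of 5.76 and a 5th percentile of 3.92.

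The genes whose pattern was nearest to the median of the 10 were Ier2, Irs1, Stub1, Mir7048 and Snhg9, over 14132 genes ranked by 4 measures: H3K4me3 width, its fold enrichment, and the numbers of H3K27Ac and MOF peaks outside the promoter. Their distances, in percentile points, were 3.36, 4.53, 4.54, 5.07 and 5.13. The 10 genes themselves were much farther from their own median, from 32.7 for Cebpa to 103 for Klf5, so that the median describes none of them closely. Ier2 and Snhg9 had MOF at the promoter and the other 3 did not. After Klf5, the gene with the fewest peaks outside its promoter on these measures, the farthest were Tfap2a (61.5), Klf4 (59.3) and Tfap2c (56.3).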

How the data were processed

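Peak lists of 4 libraries, 1 for each antibody, were taken as deposited. Per the study's methods, the authors aligned single-end MOF ChIPseq and paired-end Cut&Run reads to mm10 with Bowtie2 (very sensitive, local) and called peaks with MACS2 in each library. MOF calls used no fragment model and an automatic duplicate limit, and the others used whole fragments. A control library was not given in the sources used here. For Rfx2, H3K4me3 and H3K27Ac, the deposited lists held a whole-number score, the fold enrichment (a ratio), −log10 p-values and −log10 q-values, and the summit. The deposited MOF list held regions with inner blocks and a score of unstated scale, with more peaks than the authors counted, so it may be another call. The H3K4me3 list was attached to the repeat library, although its name lacks the mark of a repeat. The lists gave no read counts, so depth cannot be read from them. The study's reporting summary gives mapped reads, and Rfx2 had the fewest of the 4 libraries. A gene without a peak is one where none was detectable at the depth of that library.

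Promoters, gene bodies, flanks and nearest TSSs came from curated RefSeq transcripts of GRCm38.p6, and 0 peaks ended beyond a chromosome. A peak overlapping the promoter window by 1 bp or more was at the promoter, and other peaks were placed by their centre. Percentiles are ranks among the 14132 genes with H3K4me3 at the promoter, or among the peaks of the same list. Promoter sequences were RefSeq's (GRCm38.p6), and 7 promoters of 5 of the 10 genes matched by symbol. Shares of peaks carry exact (Clopper-Pearson) 95% intervals. All members were named. From each other list the genes named were the first 6, in list order, whose MOF, Rfx2 or H3K4me3 call differed from most of that list, and the 5 genes nearest in pattern were named by distance. Other genes and peaks in the text were picked with their values in view. The 10 genes and the lists were chosen with earlier results of these data known. Overlap calls were tested on simulated data and differed from bedtools (2.31.1) in 0 of 5000 windows. Python (3.11.15), pandas (2.3.3), scipy (1.17.1), pysam (0.24.0) and samtools (1.23.1) were used. Alternatives covered the window, the flank, the overlap rule, the stronger 50% of peaks (by −log10 q-value, for MOF by score), predicted transcripts and the joining of peaks.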

Additional observations from a re-analysis of the deposited data

How the results depend on the processing

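No paired analysis was possible because there was only 1 list for each antibody. Of 48 alternatives to the counts and medians above, 31 stayed within 1.5 times or within the counting interval of the reported value. Of these, 10 were for Rfx2, whose promoter count and median per gene were 0 throughout. With the peak centre required in the promoter window, 1 gene had MOF (Cebpa) and 5 had H3K4me3. With the stronger 50% of peaks alone (by q-value, for MOF by score), 1 gene had MOF (Cebpa), 5 had H3K4me3 (Trp63, Grhl1, Grhl2, Ovol1 and Tfap2c), the median width became 2671 bp over those 5, and the median numbers of peaks outside the promoter became 0 for MOF, 1.5 for H3K4me3 and 3.5 for H3K27Ac. A flank of 20 kb gave medians of 1, 3 and 4.5, and counting only peaks whose nearest TSS is the gene's own gave 0.5, 2.5 and 4.5. Joining H3K4me3 peaks under 1 kb apart, chosen after seeing the data, gave a median width of 3069 bp. The share of H3K27Ac peaks with MOF was 9.47% with the stronger 50% of MOF peaks and 32.6% with the stronger 50% of H3K27Ac peaks. The cause of these shifts was not tested. With 2.5 kb on either side of a TSS, Klf4 joined Grhl2 and Cebpa as the third gene with MOF (27.8% of all genes), and 10 of 10 had H3K27Ac (48.3%). With predicted transcripts added, no promoter count changed.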
